A study of Rattus norvegicus with 11 samples.

Results

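To describe how the transcriptome of the medial prefrontal cortex (mPFC) differed between 2 stages of the estrous cycle, 3 libraries from females in proestrus were compared with 4 libraries from females in diestrus, which are 7 of the 11 libraries of the series. They were chosen by the cycle stage in their labels, and all 15607 genes of the normalized count table entered the comparison. All 7 animals were untreated Sprague-Dawley females of 2 to 3 months with regular cycles, staged by vaginal smears, and each library came from mPFC tissue punches. Per the methods of the study, diestrus females were killed early in the day and proestrus females in the early afternoon, so that stage and hour of collection cannot be told apart. Females were pair-housed and both animals of a pair were killed at the same stage, and the labels do not give which libraries, if any, came from cage mates.

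The estrous cycle of the rat is driven by the ovary. Estradiol climbs to its peak in proestrus, progesterone rises just before ovulation, and the study took early diestrus as a stage at which both are low. No hormone level was part of the data used here. Neurons and glia of the mPFC, an area that serves working memory and the control of emotion, carry receptors for these hormones, which act in part as transcription factors, so the levels of many transcripts can in principle follow the cycle. In bulk tissue, fewer cells of a type and less RNA per cell cannot be told apart. The count table lists genes by Ensembl identifier and does not pair them with symbols, and the RefSeq table at hand gave an Ensembl identifier for 0 of its 47357 genes. Genes are therefore described by abundance, by direction and, for 4 of them, by identifier, and the cell types of the tissue were not checked against marker genes.

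The libraries held 16.7 to 19.6 M reads on genes in proestrus and 17.1 to 24.6 M in diestrus, and the median gene had 247 to 362 reads per library. The diestrus libraries did not sit together. On the first principal component of the 6065 genes with a mean over 500 normalized counts, which held 76.1% of their variance, the proestrus libraries scored 10.4, 10.2 and 10.6 in replicates 1, 3 and 5. Diestrus replicates 2 and 3 scored −16.4 and −18.7, and replicates 4 and 5 scored −0.42 and 4.24. All proestrus libraries thus lay on one side of all diestrus libraries, with diestrus replicate 5 nearest to them and replicates 2 and 3 farthest. Diestrus replicates 2, 3, 4 and 5 held 20.7, 18.9, 17.1 and 24.6 M reads, and the part of depth in this order was not tested. The main counts are therefore also given without some of these libraries.

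Most of the genes that passed the test were higher in proestrus. Of 15607 genes, 817 passed a false discovery rate (FDR) of 0.05 in limma on log2(normalized count + 1), which is 5.23% of those tested. Of these, 778 were higher in proestrus (4.98%) and 39 were lower (0.25%). Without regard to the correction, 4404 genes had a p below 0.05 (28.2%), 2503 higher and 1901 lower, so the directions were far closer in number there. The groups did not overlap at all in 4155 genes (26.6%), with all 3 proestrus values above all 4 diestrus values in 2337 genes (15%) and below them in 1818 (11.6%). The median log2 fold change of all genes was −0.014. On the reads recovered from the table, the edgeR quasi-likelihood test called 814 genes (5.22%), 36 of them lower in proestrus (0.231%), whereas DESeq2, which gave no adjusted p for 1818 genes, called 1467 of the remaining 13789 (10.6%), of which 294 were lower (2.13%). The share of calls higher in proestrus was 95.2% with limma, 95.6% with edgeR and 80.0% with DESeq2, and 59.4% with limma without diestrus replicate 5.

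The number of calls depended on single libraries. It was 135, 246 and 243 without proestrus replicate 1, 3 or 5, and 420, 448, 817 and 3252 without diestrus replicate 2, 3, 4 or 5. Without diestrus replicates 2 and 3 together, 520 genes passed, 493 of them among the 817, and the median log2 fold change of the 778 genes called higher was 0.65 in place of 0.89. Without diestrus replicates 4 and 5 together, 6501 genes passed, 3325 higher and 3176 lower in proestrus. Both pairs were chosen after seeing the data, and leaving out the diestrus libraries nearest to proestrus widens the gap between groups by construction.

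**Figure D1:**
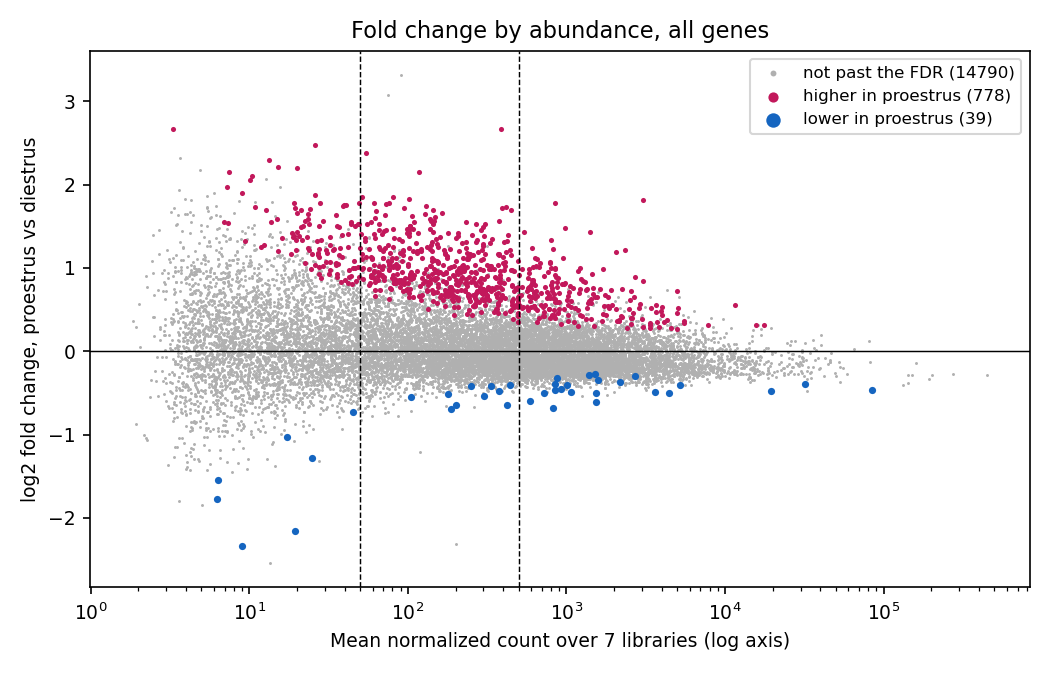
Each point is 1 of the 15607 genes. The horizontal axis is its mean normalized count over the 7 libraries (log axis), the vertical axis its log2 fold change (proestrus vs diestrus), and dashed lines mark means of 50 and 500. The 778 genes called higher spread over all abundances, whereas the cloud of abundant genes, in which 22 of the 39 genes called lower lie, sits slightly below 0.

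To relate effect size to abundance, genes were placed in strata by their mean normalized count over the 7 libraries. The stratum under 50 held 3884 genes, that of 50 to 500 held 5658, and that over 500 held 6065. The strata differed in how large a change was. The median absolute log2 fold change fell from 0.33 under 50, a 1.26-fold difference, to 0.20 between 50 and 500 (1.15-fold) and 0.17 over 500 (1.12-fold). A log2 fold change beyond 1 in either direction was found in 8.99% of genes under 50, in 3.78% between 50 and 500 and in 0.363% over 500, which was 22 genes, all higher in proestrus.

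The spread between replicates shrank with abundance as well. The median SD of the log2 values among proestrus libraries was 0.35 under 50, 0.13 between 50 and 500 and 0.069 over 500. Among diestrus libraries it was 0.43, 0.20 and 0.13. Diestrus was the more variable group in 60.2%, 69.6% and 78.4% of the genes of these strata. Counting error alone gives a log2 SD of about 0.38, 0.10 and 0.040 at the median depth of 14.4, 190 and 1315 reads. Between 50 and 500 and over 500 the median spread of both groups was larger than that of the counting of reads. The median SE of a fold change was 0.34, 0.15 and 0.091 from the lowest to the highest stratum.

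With all 7 libraries, calls were most frequent in the middle stratum. Between 50 and 500, 478 genes passed the FDR, 8.45% of the stratum against 5.23% of all genes, 468 of them higher and 10 lower in proestrus. Under 50, 116 genes passed (2.99%), 109 higher and 7 lower, and 177 passed where the strata were set by the diestrus mean alone. Over 500, 223 genes passed (3.68%), 201 higher and 22 lower. The smallest log2 fold change that passed was 0.73 under 50 (1.66-fold), 0.36 between 50 and 500 (1.28-fold) and 0.27 over 500 (1.21-fold), and the median of those that passed was 1.34, 0.92 and 0.59. Without single libraries, the counts ran from 8 to 310 under 50, from 97 to 1170 between 50 and 500 and from 30 to 1772 over 500, the lowest always without proestrus replicate 1 and the highest always without diestrus replicate 5. Without diestrus replicate 5 the order turned, and the stratum over 500 held more calls than the middle one in number and as a share of its genes. Without diestrus replicates 4 and 5 together it did so as well, with 530, 2270 and 3701 from the lowest to the highest stratum. Without diestrus replicates 2 and 3 together the counts were 43, 299 and 178.

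**Figure D2:**
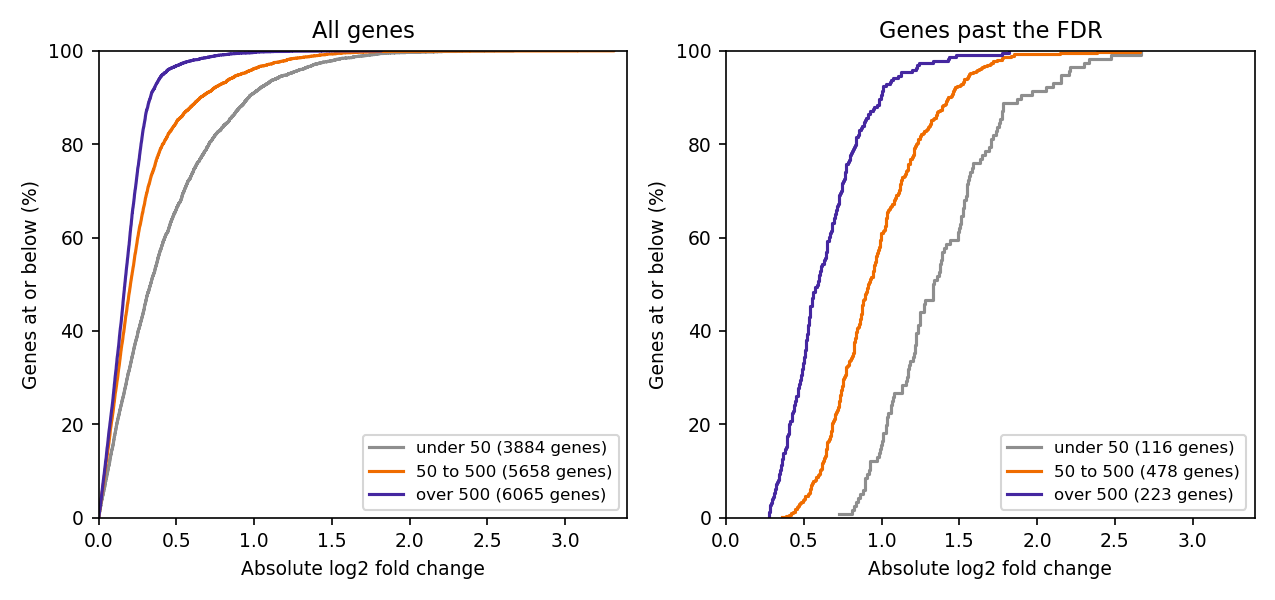
Cumulative share of genes (%) by absolute log2 fold change, for all genes of each stratum (left) and for genes past the FDR (right). The curve of the stratum over 500 rises first in both panels, with medians of 0.17 and 0.59, and the curve under 50 rises last, with medians of 0.33 and 1.34.

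With the authors' scaling, the direction of change also followed abundance, an order that was lost with quantile normalization. The median log2 fold change was 0.089 under 50 (quartiles −0.22 and 0.48), 0.031 between 50 and 500 (−0.16 and 0.28) and −0.084 over 500 (−0.20 and 0.097). The share of genes with a positive fold change was 58.0%, 53.6% and 37.1%. When the genes were ordered by abundance and cut into 10 bins of equal size, the median went from 0.10 in the lowest bin (means of 1.85 to 10.9) to −0.11 in the highest (means above 2467). Genes with all proestrus values below all diestrus values made up 3.08% of the lowest bin and 29.0% of the highest, against 11.6% of all genes. Genes with all proestrus values above made up 8.65% and 10.2% of these bins and peaked at 22.3% in bin 4, at means of 74.9 to 156, against 15% of all genes. Neither share was tested.

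**Figure D3:**
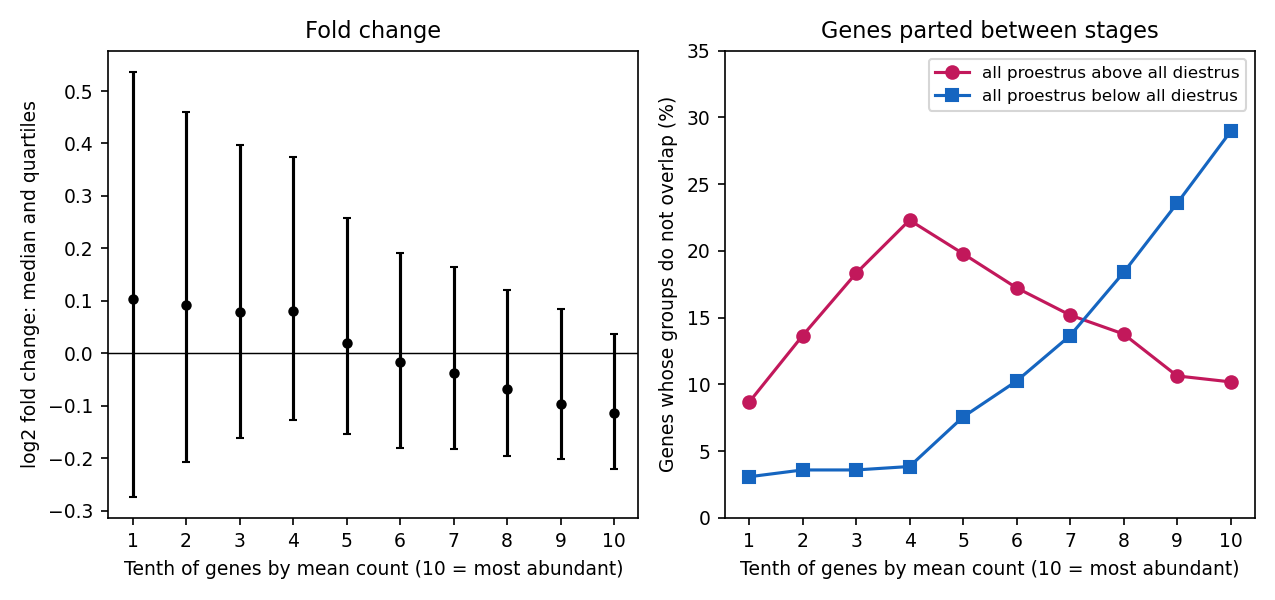
Genes in 10 bins of equal size by mean normalized count (horizontal axis), 10 being the most abundant. Left, median log2 fold change (proestrus vs diestrus) with quartiles as bars, falling from 0.10 to −0.11; right, percentage of genes with all proestrus values above (circles) or below (squares) all diestrus values, where the squares reach 29.0% in the highest bin.

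These median shifts were small but appeared in each proestrus library. Relative to the mean of the 7 libraries, the median deviation of the genes over 500 was −0.039, −0.035 and −0.046 in proestrus replicates 1, 3 and 5, and 0.048, 0.066, 0.0084 and −0.0072 in diestrus replicates 2, 3, 4 and 5. All proestrus libraries were lower than all diestrus libraries, and diestrus replicates 4 and 5 lay between replicates 2 and 3 and proestrus. For genes under 50 the deviation was 0.095, 0.092 and 0.12 in proestrus and −0.047, −0.062, −0.046 and 0.037 in diestrus, again with no overlap. In the 12 pairs of 1 proestrus and 1 diestrus library, the median log2 ratio of the genes over 500 was negative in all 12, from −0.12 to −0.020, and that of the genes under 50 was positive in all 12, from 0.043 to 0.16. These pairs share the same 7 libraries, so they largely restate the order of the library medians and are not independent. Without diestrus replicates 2 and 3 the medians over the genes were 0.068 under 50, 0.016 between 50 and 500 and −0.048 over 500.

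The order of the medians, and the sign of those of the lower strata, depended on the scaling. The authors' DESeq2 size factors set the values relative to the middle of the gene ratios. With quantile normalization, which makes the distribution of values equal in all libraries, the median was −0.070 under 50, −0.075 between 50 and 500 and −0.045 over 500, so that the first 2 turned and the stratum over 500 was the least negative. With the values of each library centred on the genes over 500, which by construction puts the median of that stratum near 0, they were 0.16, 0.10 and −0.015, and the median of all genes moved from −0.014 to 0.055. Under both scalings most calls were higher in proestrus (90.7% of 700 and 98.4% of 1010).

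**Figure D4:**
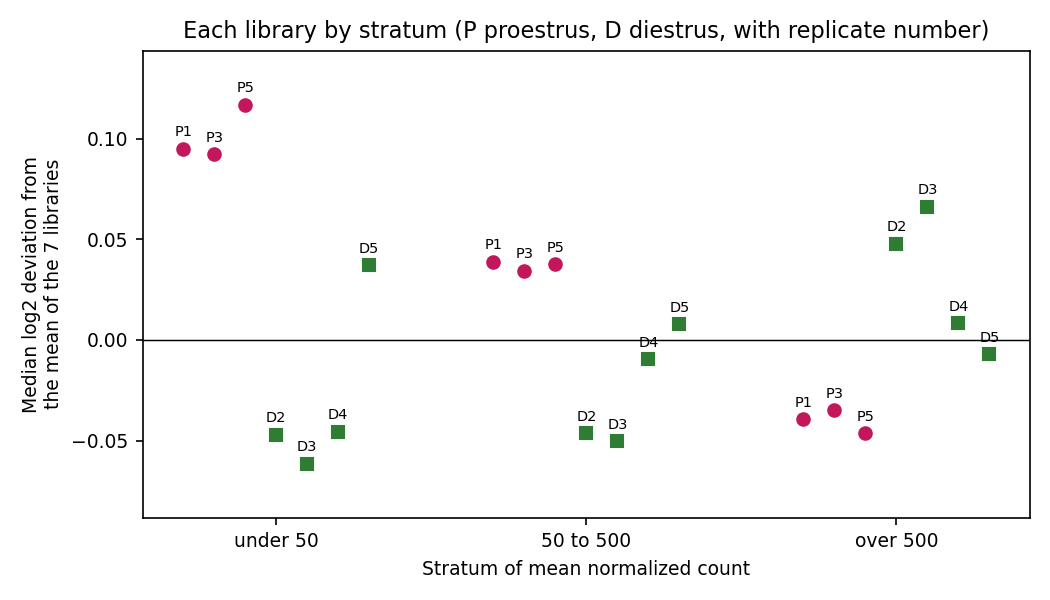
Median log2 deviation of each library from the mean of the 7 libraries (vertical axis) in the 3 strata of mean normalized count. Proestrus libraries (circles, P) lie above all diestrus libraries (squares, D) under 50 and between 50 and 500 and below them over 500, and D4 and D5 lie nearer to proestrus than D2 and D3 over 500.

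The share of reads moved with these shifts. Genes over 500 took 92.6%, 92.8% and 92.9% of the normalized counts in proestrus replicates 1, 3 and 5, and 93.8%, 93.9%, 93.4% and 93.3% in diestrus replicates 2, 3, 4 and 5. The groups did not overlap, and the proestrus mean was 92.8% ± 0.136 (SD, n = 3) against a diestrus mean of 93.6% ± 0.292 (SD, n = 4). The difference of −0.808 percentage points had p = 0.0286 by two-sided exact permutation of the 35 possible splits, the lowest p that 3 and 4 libraries can give, and an adjusted p of 0.0571 over 4 such shares, which misses 0.05. Genes of 50 to 500 took 6.81% ± 0.130 in proestrus and 6.06% ± 0.272 in diestrus (exact permutation p = 0.0286, adjusted 0.0571), and genes under 50 took 0.408% ± 0.00629 and 0.346% ± 0.0200 (exact permutation p = 0.0571, adjusted 0.0571). The 20 most abundant genes took 11.3%, 11.8% and 13.4% in proestrus and 13.8%, 13.9%, 13.4% and 13.6% in diestrus. There the groups overlapped slightly, since proestrus replicate 5 lay just above diestrus replicate 4 (exact permutation p = 0.0571, adjusted 0.0571).

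Small shifts were the rule among abundant genes. Of the 6065 genes over 500, 3643 had an absolute log2 fold change under 0.2, 2227 one of 0.2 to 0.5 and 195 one over 0.5. Below 0.2, 0 genes passed the FDR in limma, 0 in edgeR and 4 in DESeq2, and 319 had an unadjusted p below 0.05 in limma. The groups did not overlap in 655 of these genes, 142 higher and 513 lower in proestrus, which is 18.0% of them against 26.6% of all genes. From 0.2 to 0.5, 75 genes passed, 57 higher and 18 lower, and the groups did not overlap in 53.7% of the 2227 genes against the same 26.6%. Over 0.5, 148 of the 195 genes passed, 144 higher and 4 lower, where 5.23% of all genes passed. These bins were cut on the fold changes of the same libraries. Calls and genes without overlap therefore become more frequent with the bin by construction, and these shares are a description. Of these 195 genes, 188 were higher in proestrus. Large shifts of abundant genes were thus nearly all increases, whereas 1535 of the 2227 genes with intermediate shifts were decreases.

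The abundant genes that were lower by a small amount rarely passed the test. All proestrus values lay below all diestrus values in 1299 genes over 500, which is 21.4% of the stratum against 11.6% of all genes, with a median decrease of 0.22 (log2; quartiles 0.17 and 0.28) and 22 genes past the FDR. All proestrus values lay above in 737 genes, 12.2% of the stratum against 15% of all genes, with a median increase of 0.31 and 201 genes past the FDR. Among genes with an unadjusted p below 0.05, 1425 were lower and 796 higher over 500, compared with 106 lower and 498 higher under 50 and 370 lower and 1209 higher between 50 and 500.

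Within the stratum, the balance moved further with abundance. Between 500 and 2000, 2462 of 4101 genes had a negative fold change, with a median of −0.068 over all of them. Between 2000 and 10000, it was 1142 of 1713 genes (median −0.10). Over 10000, it was 210 of 251 genes (median −0.15), and in 88 of these 251 all proestrus values lay below all diestrus values (35.1%, against 11.6% of all genes), compared with 12 in which they lay above (4.78%, against 15%). In this most abundant group 3 genes passed the FDR as higher and 3 as lower, where 5.23% of all genes passed in either direction.

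Whether such shifts were called depended on the tool and on the libraries that entered the fit. Over 500, DESeq2 called 353 genes higher and 239 lower in proestrus, and edgeR 197 and 24. In limma without diestrus replicate 5, the library of its group nearest to proestrus, 675 genes over 500 passed as higher and 1097 as lower, and 1481 of these genes had an absolute log2 fold change of at most 0.5, against 75 with all libraries. Without proestrus replicate 1, 3 or 5 that number was 0, 4 and 3 (2890 genes of all abundances had an unadjusted p below 0.05 without replicate 1), and without diestrus replicate 2, 3 or 4 it was 21, 34 and 63. Without diestrus replicates 2 and 3 together it was 107, with 165 genes over 500 called higher and 13 lower. The shares of negative fold changes moved less with the libraries. They were 62.9% of the genes over 500 with all libraries, 66.1% without diestrus replicates 2 and 3 and 62.0% without diestrus replicate 5. The share was 57.5% under quantile normalization. After centring on the genes over 500, which by construction puts their median near 0, it was 52.4%.

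Of the 39 genes called lower in proestrus, 22 lay over 500 with all libraries and the authors' scaling, but 15 of 65 with quantile normalization and 0 of 12 with a single prior variance for all genes. The 22 genes over 500 were spread widely in abundance, with means from 587 to 84136 and a median of 1529 normalized counts. Their log2 fold changes ran from −0.68 to −0.28, with a median of −0.46. Between 50 and 500 there were 10 (−0.69 to −0.40, median −0.52), and under 50 there were 7 (−2.33 to −0.73, median −1.55), at means of 6.30 to 45.3 normalized counts where the fold change depends on the pseudocount. In relation to the size of the strata, genes lower in proestrus were 0.363% of those over 500, 0.177% of those from 50 to 500 and 0.180% of those under 50, compared with 0.25% of all genes. The decreases were smaller than the increases over 500, where the median of the genes called was 0.46 against 0.63, and between 50 and 500 (0.52 against 0.93). Under 50 the order turned, with 1.55 in 7 genes against 1.33 in 109, but edgeR called 3 of these 7 genes, and DESeq2 called 3 of the 4 for which it gave an adjusted p.

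All 39 genes had every proestrus value below every diestrus value, as had 11.6% of all genes. This comes almost entirely with the call, since the groups did not overlap in 816 of the 817 genes called. In the 39 genes, the diestrus library with the lowest value, and so nearest to proestrus, was replicate 5 in 20 (51.3%), replicate 4 in 14 (35.9%), replicate 2 in 4 and replicate 3 in 1. Among all 8069 genes with a negative fold change, replicate 5 was nearest in 48.8% and replicate 4 in 26.1%. For the 778 genes called higher, the nearest diestrus library was replicate 5 in 632 (81.2%) and replicate 4 in 115 (14.8%), where among all 7538 genes with a positive fold change it was replicate 5 in 50.7% and replicate 4 in 28.3%. The genes called were chosen on these same values, so these shares are a description. Relative to the mean of the 7 libraries, the median deviation of the 778 genes was 0.58, 0.46 and 0.47 in proestrus replicates 1, 3 and 5, and −0.60, −0.59, −0.24 and −0.034 in diestrus replicates 2, 3, 4 and 5. That of the 39 genes was −0.29, −0.34 and −0.22 in proestrus and 0.30, 0.32, 0.12 and 0.10 in diestrus. In both sets diestrus replicates 2 and 3 were the farthest from proestrus, and for the genes called higher diestrus replicate 5 lay close to the mean of all libraries.

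Of the 39 genes, edgeR also called 34 and DESeq2 35, and 32 passed in all 3 tests, 22 of 22 over 500, 9 of 10 between 50 and 500 and 1 of 7 under 50, where DESeq2 gave no adjusted p for 3. The count of genes lower in proestrus was 2, 3 and 9 without proestrus replicate 1, 3 or 5, and 5, 10, 49 and 1320 without diestrus replicate 2, 3, 4 or 5. Without diestrus replicates 2 and 3 together it was 16, of which 8 were among the 39, and without diestrus replicates 4 and 5 it was 3176. With quantile normalization it was 65, of which 31 were among the 39, and after centring on the genes over 500 it was 16, all among the 39.

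Single genes show the size of these differences against the spread of the libraries. ENSRNOG00000030478 was the most abundant gene past the FDR as lower in proestrus, with rank 10 of all genes. It had 64115, 62450 and 81091 normalized counts in proestrus replicates 1, 3 and 5, and 108084, 102706, 85567 and 84943 in diestrus replicates 2, 3, 4 and 5. The groups did not overlap, which the rule for naming genes required, but proestrus replicate 5 and diestrus replicates 4 and 5 lay close together. The proestrus mean was 69219 ± 10315 (SD, n = 3) against a diestrus mean of 95325 ± 11836 (SD, n = 4). In limma the log2 fold change was −0.46, with an SE of 0.12 and an adjusted p of 0.0441. The adjusted p was 0.0442 in edgeR and 0.00551 in DESeq2. In limma it was 0.194, 0.172, 0.109 and 0.103 without proestrus replicate 1 or 3 or diestrus replicate 2 or 3, 0.150 without both of the last, 0.0537 after centring on the genes over 500, 0.146 with a single prior variance for all genes, 0.0542 with a weight for each library and 0.270 with the replicate number as a block. With quantile normalization its log2 fold change was −0.24.

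ENSRNOG00000025625 fell the most among genes over 500 past the FDR. It had 848, 509 and 517 normalized counts in proestrus replicates 1, 3 and 5, and 983, 990, 934 and 981 in diestrus replicates 2, 3, 4 and 5. The diestrus libraries were nearly equal, whereas proestrus replicate 1 lay nearer to diestrus than to the rest of its group. The proestrus mean was 625 ± 194 (SD, n = 3) against a diestrus mean of 972 ± 25.4 (SD, n = 4). In limma the log2 fold change was −0.68, with an SE of 0.15 and an adjusted p of 0.0317. It lost the FDR in limma without proestrus replicate 3 or 5 (adjusted p 0.140 and 0.142), without diestrus replicate 2 or 3 (0.0732 and 0.0693), without both of the last (0.0941) and with a single prior variance for all genes (0.120).

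ENSRNOG00000032922 was the most abundant gene past the FDR as higher in proestrus with no overlap between groups, with rank 116 of all genes. It had 20912, 19298 and 19164 normalized counts in proestrus replicates 1, 3 and 5, and 16010, 14797, 15519 and 17595 in diestrus replicates 2, 3, 4 and 5. Within each group the values differed little, and diestrus replicate 5 was nearest to proestrus. The log2 fold change of 0.31, 1.24-fold, passed with limma (SE 0.074, adjusted p = 0.0370), with means of 19791 ± 973 (SD, n = 3) and 15980 ± 1186 (SD, n = 4). It lost the FDR in limma without any 1 of the libraries except diestrus replicate 5 (adjusted p from 0.0664 to 0.188), and the adjusted p was 0.0703 without diestrus replicates 2 and 3, 0.132 with a single prior variance for all genes and 0.434 with the replicate number as a block.

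ENSRNOG00000006426 showed the largest increase among genes over 500 past the FDR. It had 5868, 4784 and 4573 normalized counts in proestrus replicates 1, 3 and 5, and 980, 1188, 1587 and 2261 in diestrus replicates 2, 3, 4 and 5. The lowest proestrus value lay far above the highest diestrus value, and the diestrus values themselves spread widely. The proestrus mean was 5075 ± 695 (SD, n = 3) against a diestrus mean of 1504 ± 564 (SD, n = 4). In limma the log2 fold change was 1.82 (3.53-fold), with an SE of 0.23 and an adjusted p of 0.00294. Unlike the other named genes, it passed in limma without each of the 7 libraries in turn and without diestrus replicates 2 and 3.

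**Figure D5:**
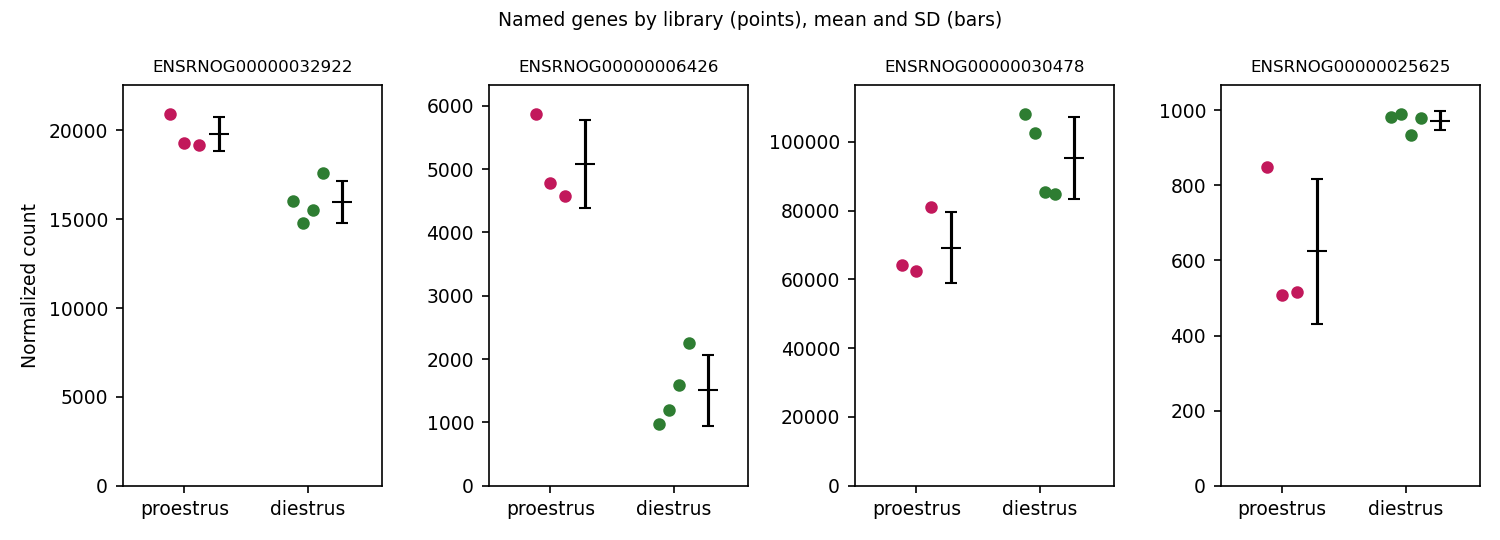
Normalized counts of the 4 named genes in each library (points, 3 proestrus and 4 diestrus) with the group mean and SD beside them, on linear axes from 0. In each gene the groups do not overlap, which the rule for naming genes required. The gap is wide in ENSRNOG00000006426 (means of 5075 and 1504) and narrow in ENSRNOG00000030478.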

How the data were processed

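Per the labels and the methods of the study, the authors made poly(A)-selected, unstranded libraries, trimmed the reads with Trimmomatic 0.32, aligned them with TopHat2 2.0.11 and Bowtie2 2.1.0 to Rnor_5.0 with added spike-ins, and used HTSeq 0.6.1p1 to count unique reads in each gene, without strand, so that overlapping antisense genes cannot be told apart. They discarded genes under a read minimum set from the spike-ins, and 1 proestrus library, left out by the authors as an outlier, was not analysed here. The deposited table used holds a signal per gene and library, read counts divided by a DESeq2 1.4.5 size factor, and has no correction for gene length. In each of the 7 libraries, 100% of the values became whole reads within 0.01. Size factors were 0.880 to 1.28. Columns of other groups and the edgeR-normalized table were not used.

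Only to look for duplicate deposits of 1 library, counts of 9 within-group pairs were compared by chi-square per degree of freedom, which was 5.07 to 26.4. The p-values measure the spread between these samples, for limma after shrinkage toward that of genes of like abundance. limma 3.58.1 in R 4.3.3 was run on log2(value + 1) with a prior variance that followed abundance, stage as its only term and Benjamini-Hochberg adjustment over 15607 genes. This scale understates the change of low counts. As alternatives, the recovered reads were tested with edgeR 4.0.16 and with DESeq2 1.42.0, and pseudocounts, filters, scalings, a replicate block and left-out libraries were varied. The tests were also run on simulated counts with known changes, which had no gradient among diestrus libraries and no shift that followed abundance. That run does not bear on the small shifts or on the effect of single libraries described here. Named genes were, per direction, the most abundant past the FDR and the one with the largest change over 500 counts, both without overlap between groups, since the tables used do not pair identifiers with symbols. Gene lists fixed by symbol were not used for the same reason. The comparison, strata and rules were chosen with earlier results of these data known.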

Additional observations from a re-analysis of the deposited data

Results flagged for a closer look

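In sets of 4 diestrus libraries, the gap between the most extreme library and its neighbour was compared with the range of the set, and 2 of 12 sets exceeded the 95% critical value of Dixon's test, which chance exceeds in about 1 of 20 sets. For the median deviation of genes under 50 normalized counts, diestrus replicate 5 (0.037) lay apart from the other three diestrus libraries (−0.062 to −0.046), with a gap of 0.837 of the range. In ENSRNOG00000025625, diestrus replicate 4 (934 normalized counts) lay apart from the other three diestrus libraries (981 to 990), with a gap of 0.840 of the range. The sets share libraries and are not independent.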

How the results depend on the processing

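Counts are of genes past the FDR in limma unless a tool is named, out of 817 in all, 778 higher and 39 lower in proestrus, and 75 over 500 normalized counts with an absolute log2 fold change of at most 0.5. DESeq2 gave 1467, 1173 higher, 294 lower and 415 small shifts. A single prior variance for all genes gave 257, 245, 12 and 0, where 3437 genes had an unadjusted p below 0.05. Quantile normalization gave 65 lower, and medians of −0.070 under 50, −0.075 from 50 to 500 (both reversed) and −0.045 over 500. Centring on genes over 500 gave 16 lower, 127 small shifts and medians of 0.16, 0.10 and −0.015. Pseudocounts of 0.5 and 5, filters at means of 10 and 50, TMM factors and edgeR left the total, higher and lower counts within 1.5 times.

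Leaving out 1 library gave 135 to 3252 genes, 133 to 1932 higher, 2 to 1320 lower and 0 to 1481 small shifts, with medians of 0.082 to 0.11 under 50, 0.025 to 0.042 from 50 to 500 and −0.099 to −0.070 over 500. The following settings were chosen after seeing the data. Without diestrus replicates 2 and 3 there were 520, 504 higher and 16 lower, and the median over 500 was −0.048. Without diestrus replicates 4 and 5 there were 6501, 3325 higher, 3176 lower and 2948 small shifts, and the median from 50 to 500 was 0.060. A weight for each library gave 73 lower and 183 small shifts.

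Replicate numbers 3 and 5 occur in both groups. With the replicate number as a block there were 242 genes, 229 higher, 13 lower and 0 small shifts (1996 genes had an unadjusted p below 0.05), with 1 residual degree of freedom before the prior. The labels do not say what the replicate number stands for, and no block or pairing entered the comparison. Deviations of same-numbered libraries had correlations over genes of 0.027 and 0.0075, which cannot exclude a shared day or batch. The share of the 100 most abundant genes differed by −1.91 percentage points (exact permutation p = 0.0286), where that of the 20 most abundant differed by −1.52 (exact permutation p = 0.0571). The causes of these changes were not tested. With 3 and 4 libraries, limma on all of them called no shift under 0.27 (log2).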
